A study of Schmidtea mediterranea with 24 samples.

Results

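Between egr-2 RNAi and control RNAi, 16 transcript contigs of the planarian flatworm Schmidtea mediterranea differed at 4 days after amputation while their 0 h and 2 day means lay close together. They were selected by a rule on the measured values from 19761 contigs tested, out of 28069 in the count table. A contig entered the set if it averaged at least 5 CPM (the usual abbreviation for read counts scaled to a common library size, here with TMM factors), and if the 4 egr-2 RNAi and the 4 control values at 4 days did not overlap. The ratio of the 4 day means, egr-2 RNAi over control, also had to be at least 1.4 or at most 0.714, and both the 0 h and the 2 day ratio had to lie between 0.870 and 1.15. At 4 days 10 of the 16 stood higher under egr-2 RNAi and 6 stood lower.

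Worms of the asexual clonal line CIW4 received 6 meals, each with 2 µg of double-stranded RNA, directed against egr-2 or, as the control, against egfp, a jellyfish fluorescent protein gene with no planarian counterpart. They were starved for 7 days and cut, and RNA was taken from the anterior part of tail fragments at 0 h, 2 days and 4 days. Each of the 6 groups, control RNAi and egr-2 RNAi at each of those times, held 4 libraries, and each library pooled 10 fragments. Because all worms belong to 1 clone and each library is a pool, the spread between libraries describes pools of fragments and not single animals.

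Planarians rebuild missing parts from neoblasts, dividing adult stem cells that supply new tissue at the wound. After amputation a wound response is followed by growth of a blastema, an outgrowth of new cells, in which missing organs such as the eyes and brain then differentiate in a head-less tail piece. EGR proteins are zinc-finger transcription factors, and in vertebrates several of their genes are switched on within a short time by injury and growth signals. The count table pairs no contig with a gene name, so no role is given here to any of the 16, and neither the egr-2 transcript nor markers of the dissected tissue could be looked up as a check of the labels. In such bulk tissue, fewer cells of a type and less RNA per cell cannot be told apart.

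Total counts were 13449251 to 30829850 per library, and the 16 contigs together held 0.0682% to 0.231% of them. Single contigs had 11 to 37315 counts in a library. Replicate 1 of egr-2 RNAi at 0 h stood apart from its group: its deviations from the group mean, in log2 CPM over contigs of at least 5 CPM, had a standard deviation of 0.282, against 0.0911 to 0.160 in the other 23 libraries. Without it the 0 h ratios of 2 of the 16, dd_Smed_v6_12951_0_1 and dd_Smed_v6_13119_0_1, left the permitted range, and the other 14 still met the rule.

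Of 11999 contigs with at least 5 CPM, 1432 had no overlap at 4 days, 132 of these also passed the ratio threshold, and 16 of the 132 stayed within the range allowed at 0 h and 2 days. The higher ratio nearest to its threshold was 1.401 inside and 1.37 outside, and the lower one 0.6996 inside and 0.715 outside. The largest departure from 1 at 0 h or 2 days was 1.13-fold among the 16 and 1.15-fold in the nearest contig left out. In mean abundance, the lowest inside had 5.07 CPM and the highest left out had 3.59 CPM.

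The 10 higher contigs had 4 day ratios of 1.401 to 1.53 and the 6 lower ones 0.487 to 0.6996, so that only dd_Smed_v6_613_0_1 differed by more than 2-fold. These ratios and the absence of overlap chose the contigs and are a description. Over all contigs of at least 5 CPM, the 4 day groups did not overlap with the higher values under egr-2 RNAi in 6.03% and with the lower ones in 5.9%. An edgeR quasi-likelihood test with Benjamini-Hochberg adjustment at 0.05 called 10 of 10 higher and 6 of 6 lower contigs at 4 days, against 1.7% and 0.653% of all tested contigs. That test reads the values the rule had used. The higher count was 6 without control 4 day replicate 1 and 6 without egr-2 RNAi 4 day replicate 2. The lower count was 5 without control 4 day replicate 2 or 4, or egr-2 RNAi 4 day replicate 1 or 2. In those fits dd_Smed_v6_10968_0_1 lost its call. Of 31 alternative fits, dd_Smed_v6_13463_0_1 lost its 4 day call in 7, the most of the 16. In the authors' deposited table all of the 16 had a false discovery rate below 0.05 at 4 days, against 3.79% of its contigs. That table compares the same groups, so its 4 day rates also read the values the rule had used. It had 0 of the 16 below that rate at 0 h and 0 at 2 days, against 8.48% and 1.14% of its contigs, where the rule had kept contigs with ratios near 1.

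**Figure D1:**
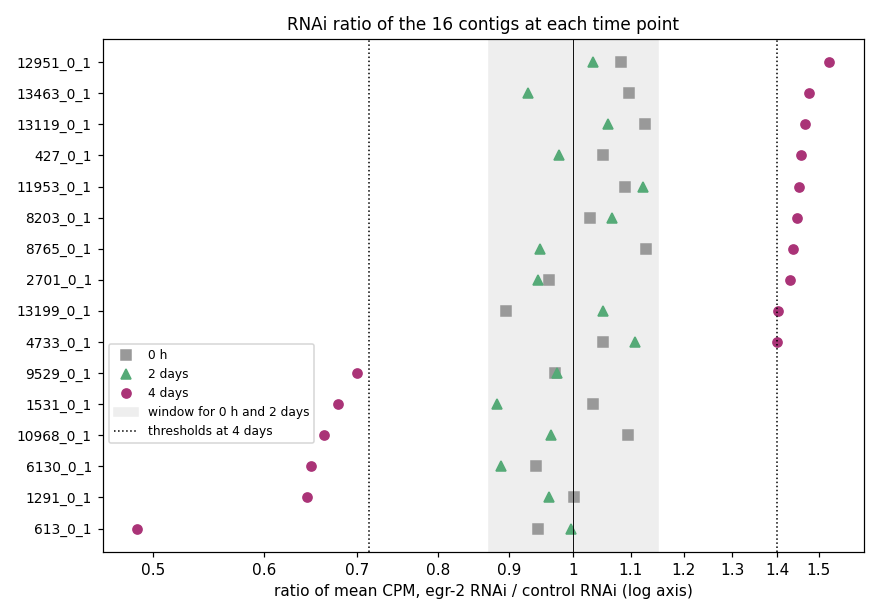
Ratio of mean CPM, egr-2 RNAi over control RNAi, on a log axis for each of the 16 contigs (contig names shortened by their common start) at 0 h, 2 days and 4 days; the grey band is the range allowed at 0 h and 2 days and the dotted lines are the thresholds at 4 days. The rule fixes the pattern: every square and triangle lies in the band and every 4 day point outside the dotted lines, with dd_Smed_v6_613_0_1 farthest out at 0.487.

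The difference between RNAi effects at 2 times was also fitted. The effect at 4 days differed from that at 2 days for 2 of the 16 by the same test (edgeR adjusted p below 0.05, against 0.0911% of all tested contigs), and from that at 0 h for 3 of the 16 (against 0.283%). Both contrasts contain the values used by the rule, which favoured such a difference. The count of 2 was 0 without any 1 of 10 libraries, namely control 2 day replicates 3 and 4, control 4 day replicates 2 and 4, egr-2 RNAi 2 day replicates 1, 2 and 4, and egr-2 RNAi 4 day replicates 2, 3 and 4. The count of 3 was 0 without control 0 h replicate 3, control 4 day replicate 2 or egr-2 RNAi 4 day replicate 3 or 4, and 1 without control 0 h replicate 2 or 4, egr-2 RNAi 0 h replicate 4 or egr-2 RNAi 4 day replicate 2. At 0 h the 2 RNAi conditions overlapped for 16 of 16 contigs, against 87.4% of all contigs with at least 5 CPM, and at 2 days for 15 of 16, against 90.8%. The ratio range at those times favoured overlap. The exception at 2 days was dd_Smed_v6_1531_0_1, whose highest egr-2 RNAi value (209 CPM) lay just below its lowest control value (211 CPM).

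Changes over time averaged over both RNAi conditions did not enter the RNAi ratios or the overlap criterion directly. The abundance minimum, a mean over all 24 libraries, did bear on them. The overlap criterion also favoured contigs with little spread between 4 day libraries, and that spread enters the edgeR test of either interval. How far this raised the counts was not tested. The rule also asked for near-equal conditions at 2 days and separate ones at 4 days. At least 1 condition therefore had to move in that interval, and part of that movement enters the averaged change. The counts and p-values from 2 to 4 days are thus a description. dd_Smed_v6_613_0_1, dd_Smed_v6_13463_0_1 and dd_Smed_v6_10968_0_1 had group means both below and above 5 CPM and met the minimum through their high times, so their changes over time are given as values with no p. The other 13 had 5 CPM or more in every group mean. From 0 h to 2 days 7 of these 13 rose, 4 fell and 2 did not pass the edgeR test. Of all tested contigs 30.9% rose and 28.8% fell, and of the 11177 with 5 CPM or more in every group mean 38.2% rose and 35.9% fell. Among the 9 higher contigs 4 rose and 4 fell, while among the 4 lower ones 3 rose and 0 fell. From 2 to 4 days 3 of the 13 rose, 8 fell and 2 did not pass. The background was 17.2% and 18.6% of all tested contigs, and 18.3% and 27.5% of those 11177. Of the 9 higher contigs 1 rose and 6 fell in that interval, and of the 4 lower ones 2 rose and 2 fell. With the 3 contigs included, 9 rose and 5 fell from 0 h to 2 days, against 38.1% and 36.3% of the contigs averaging 5 CPM or more, and 4 rose and 9 fell from 2 to 4 days, against 19.2% and 27.1%. These wider counts are a description only.

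The median log2 fold change from 0 h to 2 days was 0.19 in these 9 higher and 0.67 in these 4 lower contigs, against 0.019 over all tested contigs. With the other 3 included the higher median was -0.19, of the opposite sign, and the lower one 1.252. From 2 to 4 days the medians were -0.27 and 0.05, against 0.00058 over all tested contigs. With the other 3 included they were -0.34 and 0.155. Over contigs averaging at least 5 CPM the median was 0.012 from 0 h to 2 days and -0.030 from 2 to 4 days. When total counts alone were the scaling, the median over all contigs from 0 h to 2 days became 0.28 and the share of rises among their calls went from 51.7% to 77.4%. From 2 to 4 days that share went from 48.0% to 58.7%, so directions over time are relative to the scaling.

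**Figure D2:**
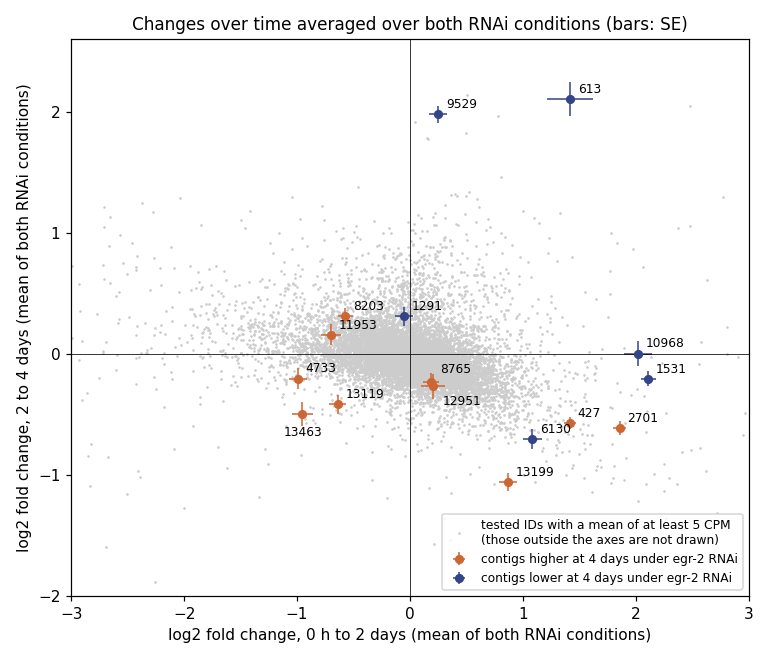
Log2 fold change from 0 h to 2 days (horizontal) against that from 2 to 4 days (vertical), each averaged over control and egr-2 RNAi, for the 16 contigs with bars of 1 SE, numbered by the component in their names, over the tested contigs with at least 5 CPM in grey. The higher contigs lie mostly below 0 on the vertical axis, and the lower contigs mostly to the right of 0 on the horizontal one; dd_Smed_v6_613_0_1 and dd_Smed_v6_9529_0_1 lie at the top, at 2.10 and 1.98.

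Averaged over both conditions, 4 of the higher contigs rose from 0 h to 2 days and fell again by 4 days. The most abundant was dd_Smed_v6_427_0_1, a contig of 1186 bases with a mean level per length of 784 CPM per kilobase, the highest of the 16 (it and dd_Smed_v6_2701_0_1 were picked for this after their values were seen). At 0 h it stood at 473, 523, 463 and 519.9 CPM in control libraries and 506, 505, 522 and 548 CPM in egr-2 RNAi libraries. By 2 days the control values were 1235, 1273, 1493 and 1478 CPM and the egr-2 RNAi values 1425, 1286, 1403 and 1236 CPM. The 2 conditions were intermingled at both times. At 4 days control libraries had fallen back to 859, 680.4, 802 and 679 CPM, while egr-2 RNAi libraries held 998, 1169, 1135 and 1092 CPM, every one of them above every control. Averaged over conditions it rose 2.67-fold from 0 h to 2 days (log2 fold change of 1.42, SE 0.053, edgeR adjusted p = 1.9e-19) and fell to 0.673 of that level by 4 days (log2 fold change of -0.57, SE 0.052, edgeR adjusted p = 6.6e-10).

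A very similar course was seen in dd_Smed_v6_2701_0_1, of 884 bases. Its control libraries had 73.8 ± 3.25 CPM at 0 h and 269.9 ± 29.8 CPM at 2 days, and its egr-2 RNAi libraries 71.0 ± 8.13 and 255 ± 13.6 CPM (SD, n = 4). The 4 day values were 160.2, 129, 150.2 and 133 CPM in control and 183, 219, 214 and 204 CPM in egr-2 RNAi libraries, a ratio of 1.43 with the closest libraries at 160.2 and 183 CPM. It rose 3.62-fold to 2 days (log2 fold change of 1.86, SE 0.059, edgeR adjusted p = 3.3e-21) and fell to 0.653 of that by 4 days (log2 fold change of -0.61, SE 0.056, edgeR adjusted p = 5.8e-10). Over the 6 group means of log2 CPM the courses of these 2 contigs had a Pearson correlation of 0.992, a description over 6 points.

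The steepest decline between 2 and 4 days among the 16 was that of dd_Smed_v6_13199_0_1, of 944 bases. At 4 days its control values of 10.7, 9.64, 11.3 and 8.91 CPM lay below the 0 h control range of 11.1 to 17.1 CPM, with 1 exception, replicate 3, above the lowest of that range. Its egr-2 RNAi values at 4 days were 13.3, 15.1, 15.9 and 12.7 CPM, all above the controls and within or just above the egr-2 RNAi 0 h range of 11.1 to 15.4 CPM. From 22.2 to 26.1 CPM in control and 22.6 to 27.8 CPM in egr-2 RNAi libraries at 2 days, its average fell to 0.480 of that level (log2 fold change of -1.06, SE 0.076, edgeR adjusted p = 4.3e-12), after a 1.83-fold rise before (log2 fold change of 0.87, SE 0.078, edgeR adjusted p = 7.5e-11).

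Smaller movements over time marked dd_Smed_v6_8765_0_1, of 1127 bases, and dd_Smed_v6_12951_0_1, of 4369 bases, the latter with the highest 4 day ratio of the 16. Control libraries of dd_Smed_v6_12951_0_1 had 7.20, 8.61, 10.97 and 10.5 CPM at 4 days and egr-2 RNAi libraries 13.98, 15.2, 13.97 and 13.8 CPM. Its earlier values were 10.04, 12.2, 11.1 and 12.8 CPM in control and 8.38, 15.7, 12.4 and 13.4 CPM in egr-2 RNAi libraries at 0 h, and 12.96, 14.98, 11.7 and 14.9 CPM and 10.2, 16.8, 14.4 and 15.02 CPM at 2 days. The low egr-2 RNAi value at 0 h belongs to the library that stood apart, and the 4 day egr-2 RNAi values lay inside the range of the 2 day ones, while the control values of 4 days lay below all 2 day controls. Its change from 0 h to 2 days did not reach the threshold (log2 fold change of 0.21, SE 0.10, edgeR adjusted p = 0.093), though it did without egr-2 RNAi 0 h replicate 2 or egr-2 RNAi 2 day replicate 1, and with total counts alone as the scaling (adjusted p down to 3.9e-04 over the alternatives).

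From 2 to 4 days the log2 fold change of dd_Smed_v6_12951_0_1 was -0.54 in control libraries and 0.003 under egr-2 RNAi. The averaged fall (log2 fold change of -0.27, SE 0.10, edgeR adjusted p = 0.038) thus came from the control libraries. Its call reads the 4 day values used by the rule and is a description. That call was lost in 10 of the 24 fits with 1 library left out, with adjusted p up to 0.10, namely without control 2 day replicate 2 or 4, control 4 day replicate 1 or 2, egr-2 RNAi 2 day replicate 2, 3 or 4, or egr-2 RNAi 4 day replicate 1, 3 or 4. It was also lost with total counts alone as the scaling. For dd_Smed_v6_8765_0_1 the 4 day values were 11.5, 13.4, 13.001 and 10.3 CPM in control and 17.2, 17.0, 17.3 and 17.7 CPM in egr-2 RNAi libraries, and the earlier ones 12.96 to 15.3 and 13.4 to 17.7 CPM at 0 h and 16.2 to 18.8 and 14.4 to 19.6 CPM at 2 days. On average it rose 1.14-fold to 2 days (log2 fold change of 0.19, SE 0.071, edgeR adjusted p = 0.026) and fell afterwards (log2 fold change of -0.23, SE 0.069, edgeR adjusted p = 0.0090). In control libraries the log2 fold changes were 0.31 and -0.53. Under egr-2 RNAi they were 0.065 and 0.065, and neither was called. The averaged fall thus came from the control libraries, and its p reads the 4 day values used by the rule. The rise lost its call without control 0 h replicate 3, control 2 day replicate 2, egr-2 RNAi 0 h replicate 2 or 3, or egr-2 RNAi 2 day replicate 4, with adjusted p up to 0.091.

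The other 5 higher contigs had their highest group means at 0 h. dd_Smed_v6_13463_0_1, of 651 bases, was the least abundant of the 16, with 46 to 235 counts per library. Its 0 h values were 7.84, 8.09, 6.87 and 7.98 CPM in control and 7.25, 7.40, 9.06 and 10.02 CPM in egr-2 RNAi libraries, and its 2 day values 3.89, 4.09, 4.64 and 4.67 CPM and 3.89, 4.45, 4.28 and 3.43 CPM. At 4 days the controls had 1.84, 2.19, 3.14 and 2.50 CPM and the egr-2 RNAi libraries 3.80, 3.57, 3.67 and 3.23 CPM, so that control replicate 3 came within 1.03-fold of the lowest egr-2 RNAi library, the narrowest gap of the 16. Averaged over conditions its 2 day level was 0.517 of that at 0 h (log2 fold change of -0.95, SE 0.096) and its 4 day level 0.707 of that at 2 days (log2 fold change of -0.50, SE 0.10).

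In dd_Smed_v6_4733_0_1, the shortest contig with 460 bases, the 0 h values of 19.3 to 21.1 CPM in control and 18.3 to 23.5 CPM in egr-2 RNAi libraries went down to 8.40 to 11.4 and 8.87 to 12.96 CPM at 2 days, the largest fall of the 16 in that interval (log2 fold change of -0.99, SE 0.083, edgeR adjusted p = 2.0e-11). At 4 days it had 5.72, 8.76, 8.64 and 7.63 CPM in control and 11.04, 11.5, 10.03 and 10.5 CPM in egr-2 RNAi libraries, with control replicate 1 the lowest library of all 24. Its average change from 2 to 4 days did not reach the threshold (log2 fold change of -0.21, SE 0.085, edgeR adjusted p = 0.061). DESeq2 called it, as did 4 fits with 1 library left out (without control 2 day replicate 4, control 4 day replicate 2 or 3, or egr-2 RNAi 2 day replicate 4), with adjusted p over all alternatives from 0.018 to 0.16.

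dd_Smed_v6_13119_0_1, of 4053 bases, stepped down at both intervals (log2 fold changes of -0.64, SE 0.076, and -0.42, SE 0.077, with edgeR adjusted p = 1.9e-08 and 7.1e-05). It reached 7.45 to 9.92 CPM in control and 12.1 to 13.9 CPM in egr-2 RNAi libraries at 4 days, from 19.1 to 23.2 and 20.04 to 26.2 CPM at 0 h. The fall of dd_Smed_v6_11953_0_1, of 1816 bases, from 0 h to 2 days (log2 fold change of -0.70, SE 0.088, edgeR adjusted p = 7.3e-08) was followed by no called change (log2 fold change of 0.16, SE 0.088, edgeR adjusted p = 0.18). Its 4 day values were 5.28, 5.32, 7.26 and 6.63 CPM in control and 8.23, 10.5, 8.97 and 7.84 CPM in egr-2 RNAi libraries, so the 2 nearest libraries were 1.08-fold apart.

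Of the 10 higher contigs, dd_Smed_v6_8203_0_1 alone rose on average from 2 to 4 days (log2 fold change of 0.31, SE 0.066, edgeR adjusted p = 4.2e-04), after a fall from 0 h (log2 fold change of -0.57, SE 0.068, edgeR adjusted p = 2.0e-08). Control libraries of this contig of 2913 bases stood at 22.8, 24.1, 18.8 and 25.2 CPM at 2 days and 20.4, 23.5, 27.3 and 25.5 CPM at 4 days, 2 ranges that overlap. Its egr-2 RNAi libraries moved from 25.1, 23.96, 20.8 and 27.0 CPM to 31.4, 36.4, 34.2 and 38.0 CPM, ranges that do not overlap. At 4 days they were back near the span of 0 h, 33.0 to 37.5 CPM. The averaged rise thus came mostly from the egr-2 RNAi libraries, and its p reads the 4 day values used by the rule.

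The 6 lower contigs included the largest effect of the set. dd_Smed_v6_613_0_1, of 753 bases, was close to 1 CPM at 0 h, with 0.97995, 1.12, 0.912 and 1.003 CPM in control and 0.693, 0.612, 0.906 and 1.58 CPM in egr-2 RNAi libraries. It had 2.88, 2.88, 2.41 and 2.61 CPM and 3.33, 2.99, 2.40 and 2.01 CPM at 2 days, where the conditions overlapped. By 4 days control libraries had reached 20.8, 20.6, 14.3 and 10.3 CPM and egr-2 RNAi libraries 8.68, 8.44, 7.65 and 7.34 CPM. Controls 1 and 2 were about equal and controls 3 and 4 lower, but still above every egr-2 RNAi library. Averaged over conditions the level of dd_Smed_v6_613_0_1 was 2.67-fold higher at 2 days than at 0 h (log2 fold change of 1.42, SE 0.20) and 4.30-fold higher at 4 than at 2 days (log2 fold change of 2.10, SE 0.14). Without control 4 day replicate 1, 2 or 3, or without egr-2 RNAi 0 h replicate 4, it no longer met the rule. Its mean of 5.31 CPM lay close to the minimum of 5 CPM. The 4 day difference itself, which the rule had used, stayed called in 31 of 31 alternative fits.

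A late rise was found for dd_Smed_v6_9529_0_1, of 3387 bases. Control libraries had 7.84 to 10.8 CPM at 0 h. At 2 days they held 11.02 to 12.9 CPM, and at 4 days 52.0, 59.9, 56.8 and 49.7 CPM. In egr-2 RNAi libraries the corresponding values were 7.40 to 11.6 CPM, 10.7 to 12.3 CPM and 34.5, 36.7, 41.8 and 39.8 CPM, so that both conditions rose and the egr-2 RNAi libraries reached a lower level. The average increase was 3.94-fold from 2 to 4 days (log2 fold change of 1.98, SE 0.070, edgeR adjusted p = 2.1e-18) and 1.19-fold before (log2 fold change of 0.25, SE 0.080, edgeR adjusted p = 0.0081). For dd_Smed_v6_1291_0_1, of 578 bases, the 4 day controls stood above all other libraries.

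Those controls of dd_Smed_v6_1291_0_1 had 23.9, 27.7, 22.4 and 22.1 CPM, against 14.04, 18.8, 13.6 and 15.4 CPM in egr-2 RNAi libraries at 4 days. Earlier values were 12.7, 16.9, 16.4 and 18.1 CPM in control and 16.3, 15.2, 16.03 and 16.7 CPM in egr-2 RNAi libraries at 0 h, and 15.7, 15.7, 17.5 and 14.8 CPM and 18.9, 14.8, 15.04 and 12.3 CPM at 2 days. No change passed the test from 0 h to 2 days (log2 fold change of -0.05, SE 0.082, edgeR adjusted p = 0.60), and with total counts as the scaling this became a called rise. The average increased from 2 to 4 days (log2 fold change of 0.31, SE 0.079, edgeR adjusted p = 0.0024). That increase came from the control libraries (log2 fold change of 0.59, against 0.024 under egr-2 RNAi). Its p reads the 4 day values used by the rule. With dd_Smed_v6_427_0_1, dd_Smed_v6_1291_0_1 was 1 of the 2 contigs that met the rule in each of the 24 fits with 1 library left out.

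The other 3 lower contigs had higher levels at 2 days than at 0 h. dd_Smed_v6_1531_0_1, of 738 bases, rose 4.32-fold on average, the largest rise of the 16 in that interval (log2 fold change of 2.11, SE 0.067, edgeR adjusted p = 3.8e-21), from 54.9, 45.0, 49.6 and 43.3 CPM in control and 62.3, 45.0, 45.5 and 46.5 CPM in egr-2 RNAi libraries at 0 h. At 2 days it stood at 224, 238, 211 and 227 CPM and 209, 205, 178 and 201 CPM, a ratio of 0.882 within the allowed range. At 4 days the values were 247, 227, 209 and 207 CPM in control and 172, 157, 133 and 141 CPM in egr-2 RNAi libraries, so the egr-2 RNAi libraries were the lower ones at both later times, by a wider margin at 4 days. The average fell slightly from 2 to 4 days (log2 fold change of -0.21, SE 0.063, edgeR adjusted p = 0.010). That fall came from the egr-2 RNAi libraries (log2 fold change of -0.40, against -0.016 in control). Its p reads the 4 day values used by the rule.

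dd_Smed_v6_10968_0_1, of 1657 bases, was 4.06-fold higher at 2 days than at 0 h (log2 fold change of 2.02, SE 0.13), going from 1.88 to 2.96 CPM in control and 1.88 to 4.22 CPM in egr-2 RNAi libraries to 9.28 to 13.1 and 8.41 to 13.2 CPM. At 4 days it had 11.4, 14.1, 12.4 and 14.2 CPM in control and 8.07, 8.44, 8.87 and 9.15 CPM in egr-2 RNAi libraries, the controls toward or above the top and the egr-2 RNAi libraries toward or below the bottom of the 2 day values. Its average moved little from 2 to 4 days (log2 fold change of 0.0016, SE 0.10). dd_Smed_v6_6130_0_1, of 1598 bases, rose 2.12-fold (log2 fold change of 1.09, SE 0.088, edgeR adjusted p = 9.2e-12) and then fell to 0.614 of its 2 day level (log2 fold change of -0.70, SE 0.083, edgeR adjusted p = 7.8e-08). Its 4 day values of 20.1, 20.1, 21.2 and 18.6 CPM in egr-2 RNAi libraries were back at the 0 h range of 17.5 to 20.2 CPM or just above it, while controls had 32.4, 27.6, 28.4 and 35.0 CPM, above their own 0 h range of 17.6 to 22.0 CPM.

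**Figure D3:**
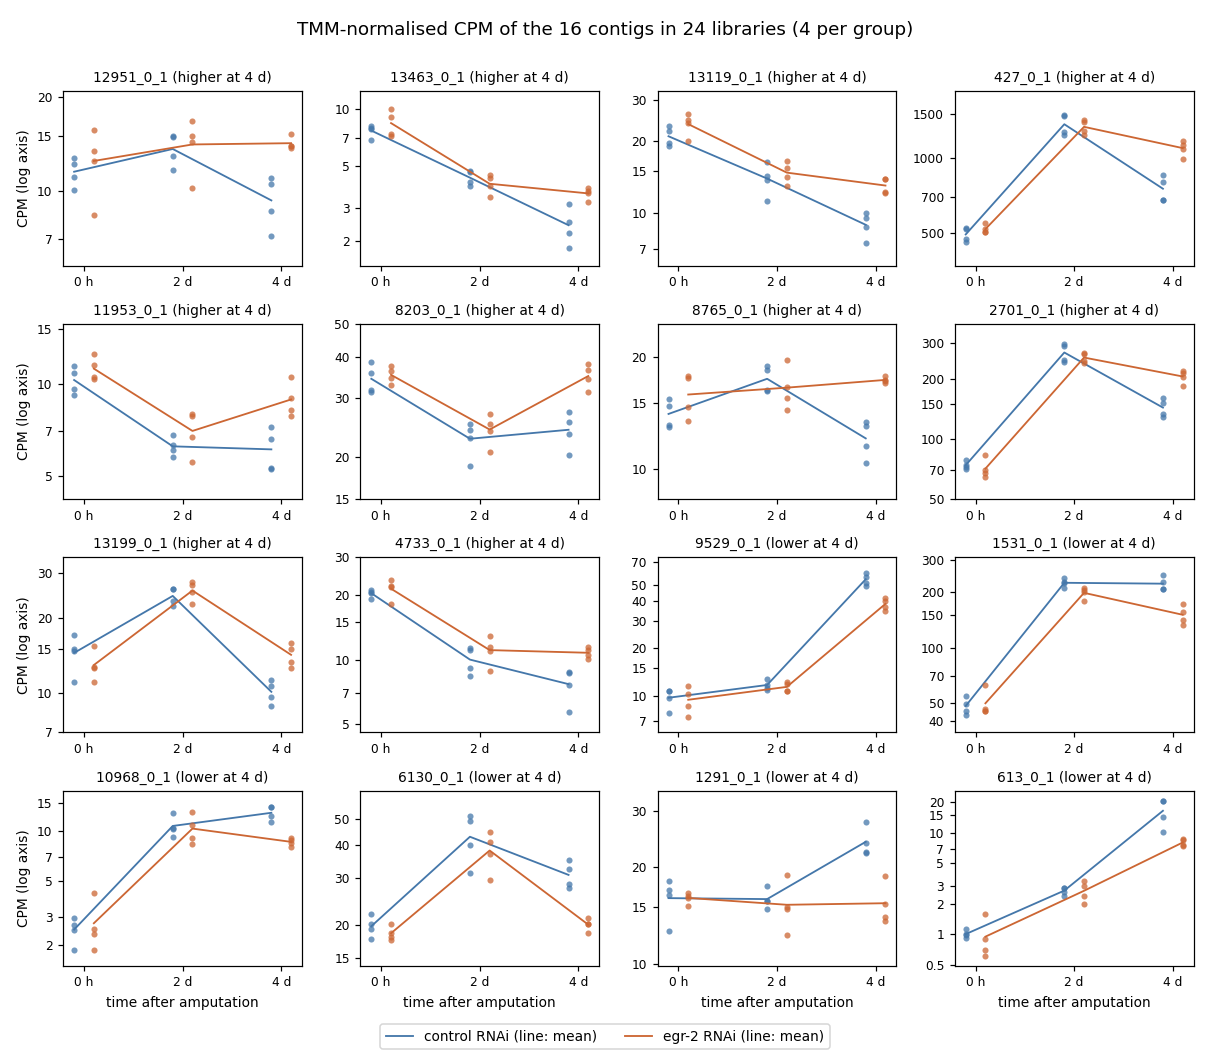
TMM-normalised CPM on a log axis for each of the 16 contigs in all 24 libraries, by time after amputation; points are libraries (4 per group), lines join group means, blue is control RNAi and orange egr-2 RNAi. At 0 h and 2 days the colours intermingle or nearly touch, and at 4 days they separate, by the rule; dd_Smed_v6_427_0_1 and dd_Smed_v6_2701_0_1 peak at 2 days, while dd_Smed_v6_613_0_1 climbs from near 1 CPM to 10.3 to 20.8 CPM in controls and 7.34 to 8.68 CPM under egr-2 RNAi.

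Within each condition, the change from 2 to 4 days was smaller in size under egr-2 RNAi than in control for 12 of the 16 contigs, 8 of the 10 higher and 4 of the 6 lower. Since the 4 day difference chose the contigs and both changes start from nearly equal 2 day means, this is given as values with no test. Over contigs of at least 5 CPM the median absolute log2 fold change from 2 to 4 days was 0.12 in control and 0.15 under egr-2 RNAi. dd_Smed_v6_12951_0_1 had log2 fold changes of -0.54 in control and 0.00 in egr-2 RNAi fragments (SE 0.14 and 0.14), and dd_Smed_v6_8765_0_1 of -0.53 and 0.06 (SE 0.098 and 0.097). For dd_Smed_v6_427_0_1 they were -0.86 and -0.28 (SE 0.075 and 0.074), and for dd_Smed_v6_613_0_1 2.61 and 1.595 (SE 0.19 and 0.20). The control change of dd_Smed_v6_1291_0_1 was 0.59 and its egr-2 RNAi change 0.02 (SE 0.11 and 0.11). The 4 contigs with the larger change under egr-2 RNAi were dd_Smed_v6_8203_0_1 (0.09 in control and 0.53 in egr-2 RNAi), dd_Smed_v6_11953_0_1 (-0.03 and 0.34), dd_Smed_v6_1531_0_1 (-0.02 and -0.40) and dd_Smed_v6_6130_0_1 (-0.48 and -0.93). In dd_Smed_v6_10968_0_1 the 2 sizes were nearly equal and the signs opposite (0.28 and -0.27).

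**Figure D4:**
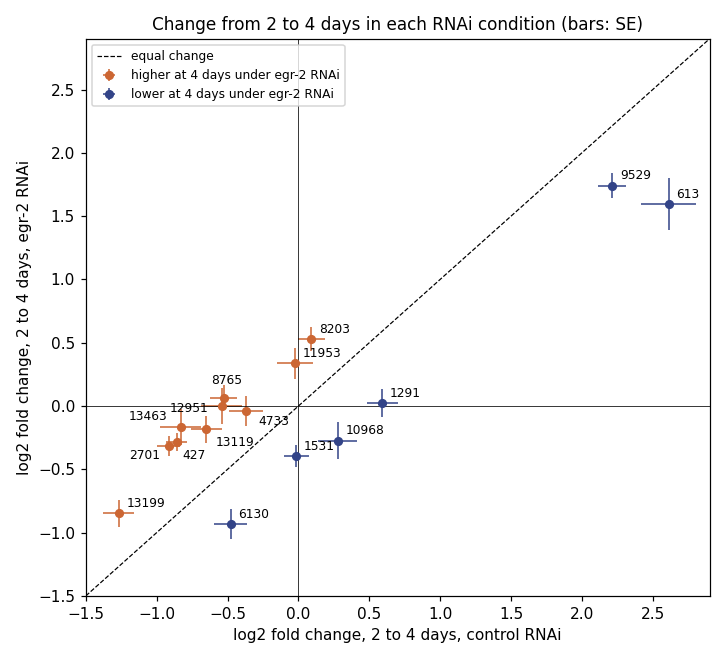
Log2 fold change from 2 to 4 days in control RNAi (horizontal) and in egr-2 RNAi (vertical) for the 16 contigs, numbered by the component in their names, with bars of 1 SE and a dashed line of equal change. The higher contigs lie above the line and the lower ones below it, as the rule brings about; dd_Smed_v6_12951_0_1, dd_Smed_v6_8765_0_1, dd_Smed_v6_4733_0_1 and dd_Smed_v6_1291_0_1 lie near 0 on the vertical axis, with values of 0.00, 0.06, -0.04 and 0.02.

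Contigs with the most similar group means were looked up for the ends of the ratio order, by Pearson's correlation over the 6 group means of log2 CPM among contigs of at least 5 CPM. Nearest to dd_Smed_v6_12951_0_1 were dd_Smed_v6_8765_0_1, itself 1 of the 16 (r = 0.974), and dd_Smed_v6_9531_0_1 (r = 0.947), whose RNAi ratios were 1.09 at 0 h, 1.06 at 2 days and 1.33 at 4 days. Nearest to dd_Smed_v6_613_0_1 were dd_Smed_v6_10403_0_1 (r = 0.996) and dd_Smed_v6_8386_0_1 (r = 0.995). Their 4 day ratios of 0.929 and 0.901 were nearer to 1 than that of dd_Smed_v6_613_0_1, while their courses over time were alike.

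In other respects the 16 differed widely from each other. Their lengths ran from 460 to 4369 bases with a median of 1156.5, against 1569 in contigs of at least 5 CPM, and their median abundance was 16.4 CPM, against 29.4 CPM. Mean levels per length spanned 2.87 CPM per kilobase in dd_Smed_v6_12951_0_1 to 784 in dd_Smed_v6_427_0_1, with 202 in dd_Smed_v6_1531_0_1 and 192 in dd_Smed_v6_2701_0_1 next to the top and 29.6 or less in the other 13. Deviations from the group means in the 16 libraries of 0 h and 2 days had a median pairwise correlation of -0.0030 over 120 pairs, against 0.023 over all pairs of contigs with at least 5 CPM. Single pairs of the 16 ran from -0.71 to 0.78. The median was -0.0025 where both contigs were higher, -0.0070 where both were lower and 0.00030 for 1 of each. The pairs share the same libraries, and these values are a description. None of the 16 shares its component number with another contig in the table, and no contig sequences were used here.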

How the data were processed

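The authors deposited raw read counts per transcript contig for 24 libraries, and 0 columns were unmatched to a sample. The series' design text names BBDuk, Bowtie2 and edgeR, and the submitters' processing notes FastQC 0.11.5, Bowtie2 2.3.1, featureCounts and Subread 1.6.3; the strand setting is not given in the sources used here. Their second deposited table holds log2 fold changes, average log2 CPM and p-values adjusted for the false discovery rate for 16812 contigs.

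Contigs were kept by filterByExpr over the 6 groups (minimum count 10, minimum total 15), which left 19761 with 99.91% to 99.95% of the counts. The edgeR 4.0.16 quasi-likelihood test (limma 3.58.1, R 4.3.3) used TMM factors and a group-means model over all 24 libraries, with Benjamini-Hochberg adjustment over all tested contigs. It was also run on simulated data with changes placed at 4 days only, and the outcome is not reported here. SEs derive from the F statistic. The 36 replicate pairs differed by 2.53 to 25.9 times counting noise (chi-square per degree of freedom, contigs with at least 10 counts), so each library is 1 replicate. The labels call replicates biological without saying whether fragments came from separate cultures. The p-values therefore set each difference against the spread between these pools.

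The 16 contigs and all lists were chosen with earlier results of these data known. Named by rule were the 2 highest and 2 lowest 4 day ratios and the 2 largest called rises and falls in each interval, over all 16; the other contigs were named because the set is small. The tests between RNAi effects the backgrounds of contigs with at least 5 CPM, and the counts without the 3 contigs whose group means fell under it were added after seeing the data. Planned lists by gene description could not be applied. Alternatives were RLE factors, total counts alone, no filter, a filter of 1 CPM or more in 4 or more libraries, the tool DESeq2 1.42.0, only the compared groups, a replicate block, other thresholds of the rule, and leaving out each library.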

Additional observations from a re-analysis of the deposited data

Results flagged for a closer look

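A library far from the other 3 of its group was found in 2 of 96 sets of 4 values, where chance gives about 1 in 20. In dd_Smed_v6_12951_0_1 at 4 days, egr-2 RNAi replicate 2 had 15.2 CPM while the other 3 had 13.8 to 13.98 CPM. In dd_Smed_v6_1531_0_1 at 0 h, egr-2 RNAi replicate 1 had 62.3 CPM while the other 3 had 45.0 to 46.5 CPM; it is the library that stood apart over all contigs.

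The RNAi effect at 4 days differed from an earlier one by edgeR's test in 3 contigs, with the reservation that the rule had favoured such differences. In dd_Smed_v6_427_0_1 the 4 day effect exceeded the 2 day one by 0.58 on the log2 scale (SE 0.10, edgeR adjusted p = 0.030) and the 0 h one by 0.47 (SE 0.10, edgeR adjusted p = 0.045). In dd_Smed_v6_2701_0_1 these differences were 0.60 (SE 0.11, edgeR adjusted p = 0.030) and 0.58 (SE 0.11, edgeR adjusted p = 0.024). In dd_Smed_v6_1531_0_1 the difference from 0 h was -0.61 (SE 0.13, edgeR adjusted p = 0.033). Of 31 alternative fits, 15 lost the call against 0 h for dd_Smed_v6_427_0_1 (edgeR adjusted p up to 0.11). The same call was lost in 6 fits for dd_Smed_v6_2701_0_1 and in 10 for dd_Smed_v6_1531_0_1. The calls against 2 days were lost in 10 fits for each of dd_Smed_v6_427_0_1 and dd_Smed_v6_2701_0_1.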

How the results depend on the processing

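The number of contigs meeting the rule depended on its thresholds. It was 46 (34 higher, 12 lower) with a ratio threshold of 1.3, 5 (1 higher, 4 lower) with 1.5, 9 (5 higher, 4 lower) with a range of 1.1 at 0 h and 2 days, 23 (17 higher, 6 lower) with 1.2, and 36 (20 higher, 16 lower) with a mean of at least 1 CPM. Leaving out 1 library gave 10 to 21 contigs, 6 to 14 higher and 4 to 8 lower, with the lowest count without control 4 day replicate 2. Other scalings and filters on low counts gave 16 to 19, which held 14 to 16 of the original set, and single contigs met the rule in 18 to 24 of the 24 leave-outs. The calls over time among all 16, the 3 contigs that met the abundance minimum through their high times included, gave 8 to 10 rises and 5 falls from 0 h to 2 days, and 4 rises and 8 to 10 falls from 2 to 4 days, over the fits with 1 library left out. With total counts alone as the scaling, dd_Smed_v6_1291_0_1 had a called rise from 0 h to 2 days (log2 fold change of 0.21) in place of a value below 0. Calls at 4 days, read by the rule, ranged from 6 to 10 higher and from 5 to 6 lower. Differences between RNAi effects were called for 0 to 2 contigs between 2 and 4 days and for 0 to 3 between 0 h and 4 days when 1 library was left out, and in the latter for 1 with only the compared groups fitted and for 6 with DESeq2. Between 2 and 4 days dd_Smed_v6_8765_0_1 was called in addition with only the compared groups fitted and with DESeq2. The replicate block changed no count by more than 1.5 times (10 rises from 0 h to 2 days, with dd_Smed_v6_12951_0_1 added at an edgeR adjusted p = 0.030, and 5 falls, 4 rises and 9 falls afterwards, and 4 differences in RNAi effect between 0 h and 4 days in place of 3). Same-numbered control and egr-2 RNAi libraries correlated at -0.149 to 0.316, and 5 of 12 matched their own number best, so the numbers were not taken as pairs. Depth limits dd_Smed_v6_613_0_1 most, with 11 counts in its lowest library.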
